A study of Homo sapiens with 18 samples.

Results

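The ubiquitin-specific proteases (USPs) were read as the genes whose symbol is USP followed by a number and an optional letter. In the annotation of the array 32 such genes had at least 1 probe set that named no other gene, on 52 probe sets in all, and each gene was read from its probe set with the highest mean over the 18 arrays. USP6NL, which encodes a GTPase-activating protein, the pseudogene USP32P2, and 3 probe sets that name several genes (2 for USP15 and 1 for USP4) were left out. Of the 32 genes, 28 passed the filter on dim probe sets and were tested among 7828 genes. USP2, USP29, USP49 and USP53 did not pass it, with means on the log2(signal + 3) scale of 2.80, 2.75, 2.55 and 2.51, against a filter at 3.72.

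The arrays measured U251, an established human glioblastoma cell line, in 3 treatments at 6, 24 and 48 h, with 2 arrays in each of the 9 groups. In siMPS1 cells an siRNA was directed at MPS1, the spindle checkpoint kinase encoded by TTK, in siNeg cells a negative-control siRNA was given, and Control cells were not transfected. The labels give 2 pmol of siRNA for the transfections and name no other agent. The labels are silent on separate cultures for replicate arrays, so the p-values measure the spread between arrays, which may be technical. All groups are 1 line, and in such bulk RNA fewer cells in a given state and less RNA per cell cannot be told apart.

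USPs are cysteine proteases that cut ubiquitin from proteins, and so work against the ubiquitin ligases that mark proteins for the proteasome, for sorting at membranes or for signalling. They form the largest family of deubiquitinases, and the members differ in their substrates and in the partner proteins that switch them on. Known roles include DNA repair (USP1, USP47), the p53 and MDM2 pathway (USP7, USP4), removal of ubiquitin from histones (USP22, USP16, USP3, USP21), receptor sorting at endosomes (USP8) and release of free ubiquitin at the proteasome (USP14, USP5).

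TTK, the target of the siRNA, lay between 4.07 and 5.23 on the log2(signal + 3) scale on the 6 siMPS1 arrays, between 5.48 and 6.92 on the 6 siNeg arrays and between 5.34 and 7.13 on the 6 Control arrays, so the siMPS1 arrays overlapped with neither of the others. The fitted change of siMPS1 minus siNeg was -1.43 at 6 h, -1.88 at 24 h and -2.30 at 48 h. Replicate arrays correlated between 0.983 and 0.990. The glial markers VIM, NES, CD44, SOX9 and TNC were above the array median on all 18 arrays, GFAP was above it on 3 and S100B on 0, and 9 markers of epithelial, blood and neuronal cells were above it on 0 arrays. The 3' to 5' log2 ratio of ACTB, a measure of RNA quality, was 0.87 and 0.92 on the siMPS1 arrays at 48 h, against 0.10 and 0.14 on the siNeg arrays and 0.16 and 0.24 on the Control arrays of that time. The signal of 18S RNA was 10.76 and 10.84 on the siMPS1 arrays at 48 h, against 9.50 and 9.47 on the siNeg arrays, and at 24 h 9.88 and 10.05 on the siMPS1 arrays, against 10.60 and 10.64 on the siNeg arrays. The signal of Alu repeats was 12.88 and 13.04 on the siMPS1 arrays at 6 h, against 12.49 and 12.47 on the siNeg arrays. The results at each time stand beside these differences, and their part in them was not tested.

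Promoter windows of 4 genes are shown: USP8 and USP46, called against siNeg at 3 and 2 times, and USP36 and USP7, which had the smallest adjusted p-values against siNeg at 48 h. Each window runs from 250 bases before to 50 bases after an annotated gene start, in RefSeq sequence of GRCh38.p14, written 5' to 3' on the strand of the gene. Capitals mark matches, on either strand, to 9 short motifs: GGGCGG (GC box), CCAAT (the NF-Y site), CACGTG (E-box), TGACGT (cAMP response core), CCGGAA (ETS site), TTTGAA (cell-cycle homology region), TTTNNCGC (E2F site), TGATGNAA (amino acid response element), and the interferon response core, which is GAAA, any 2 bases, GAAA. USP36 has 2 annotated starts and both windows are given, while for USP46 and USP7 only the window at the outermost start is shown.
USP8 at chr15:50424155-50424454, plus strand: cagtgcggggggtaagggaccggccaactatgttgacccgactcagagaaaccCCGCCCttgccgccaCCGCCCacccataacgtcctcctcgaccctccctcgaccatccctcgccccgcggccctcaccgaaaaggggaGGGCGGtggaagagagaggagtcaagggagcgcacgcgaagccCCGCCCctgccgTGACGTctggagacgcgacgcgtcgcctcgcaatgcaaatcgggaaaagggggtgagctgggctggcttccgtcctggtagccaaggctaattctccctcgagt
USP46 at chr4:52659252-52659551, minus strand: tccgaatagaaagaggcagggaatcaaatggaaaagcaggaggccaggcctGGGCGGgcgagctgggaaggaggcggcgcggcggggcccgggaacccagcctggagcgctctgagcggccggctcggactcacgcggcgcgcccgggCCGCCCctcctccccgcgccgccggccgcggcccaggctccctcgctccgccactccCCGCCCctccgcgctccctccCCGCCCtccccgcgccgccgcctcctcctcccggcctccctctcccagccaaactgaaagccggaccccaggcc
USP36, outer start, at chr17:78841390-78841689, minus strand: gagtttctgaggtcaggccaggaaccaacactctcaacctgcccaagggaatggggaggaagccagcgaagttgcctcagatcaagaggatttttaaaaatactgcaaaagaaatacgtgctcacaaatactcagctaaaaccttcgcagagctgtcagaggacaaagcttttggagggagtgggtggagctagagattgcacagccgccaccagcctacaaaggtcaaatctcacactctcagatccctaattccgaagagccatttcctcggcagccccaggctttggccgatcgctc
USP36, inner start, at chr17:78840765-78841064, minus strand: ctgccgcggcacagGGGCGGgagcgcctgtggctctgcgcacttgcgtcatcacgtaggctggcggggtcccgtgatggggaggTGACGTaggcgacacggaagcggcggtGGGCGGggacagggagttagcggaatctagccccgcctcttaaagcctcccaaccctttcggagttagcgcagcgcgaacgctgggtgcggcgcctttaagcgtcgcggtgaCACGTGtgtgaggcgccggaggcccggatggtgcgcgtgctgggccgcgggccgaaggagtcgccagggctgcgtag
USP7 at chr16:8963857-8964156, minus strand: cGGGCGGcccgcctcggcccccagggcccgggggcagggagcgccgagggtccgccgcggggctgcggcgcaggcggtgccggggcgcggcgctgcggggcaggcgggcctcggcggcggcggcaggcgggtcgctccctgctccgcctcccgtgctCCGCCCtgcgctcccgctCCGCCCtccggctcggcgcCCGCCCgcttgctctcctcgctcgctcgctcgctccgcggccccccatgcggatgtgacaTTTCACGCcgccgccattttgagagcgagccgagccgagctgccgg

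The windows shown hold GC boxes, apart from the outer USP36 window, which matched none of the 9 motifs. The windows not shown, 1 of USP46 and 2 of USP7, hold no GC box, and 1 of those of USP7 holds a CCAAT. The USP8 window and the inner USP36 window also hold a TGACGT, and the inner USP36 window holds the CACGTG. The USP7 window holds 1 match to the E2F motif. Over all 36 windows found for 27 of the 32 genes, 28 held a GC box, against 56.3% of 22199 windows of protein-coding genes. An E2F match was in 4 of the 36 windows against 8.32% of all windows, TTTGAA in 2 against 12.4%, CCAAT in 10 against 34.7%, CCGGAA in 10 against 21.2%, TGACGT in 4 against 8.94% and CACGTG in 1 against 8.34%. The interferon core and the amino acid response element were in 0 of the 36 windows, against 3.17% and 2.69% of all windows. A match says only that the letters are in the window.

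The comparison of siMPS1 with siNeg asks which USP transcripts differ once the effect of giving an siRNA is shared by both sides. Calls are limma adjusted p-values under 0.05, with the adjustment over all 7828 genes. At 6 h only USP8 of the 28 genes was called, and it was lower (0 higher and 1 lower, against 3.45% of all genes higher and 4.25% lower). At 24 h USP1 and USP13 were higher and USP46, USP8 and USP12 lower (2 and 3 of 28, against 5.14% of all genes higher and 5.81% lower). At 48 h 7 genes were higher and 6 lower, 46.4% of the 28, against 15.7% of all genes higher and 13.5% lower. The median log2 change of the 28 genes at 48 h was 0.04, and that of all genes 0.03.

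Over the 3 times 16 of the 28 genes were called against siNeg at least once, against 38.2% of all genes, and 12 were called at none. Without counting 48 h 5 of the 28 were called, against 16.8% of all genes. USP8 was called at all 3 times and USP46 at 2. The counts rest on few arrays. At 6 h the count was 0 without either siNeg array of that time and 2 without either siNeg array of 48 h. At 24 h it was 3 without siMPS1 replicate 1, 3 without siNeg replicate 1 and 2 without siNeg replicate 2 of that time. At 48 h it was 8 without siNeg replicate 2 of that time.

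**Figure D1:**
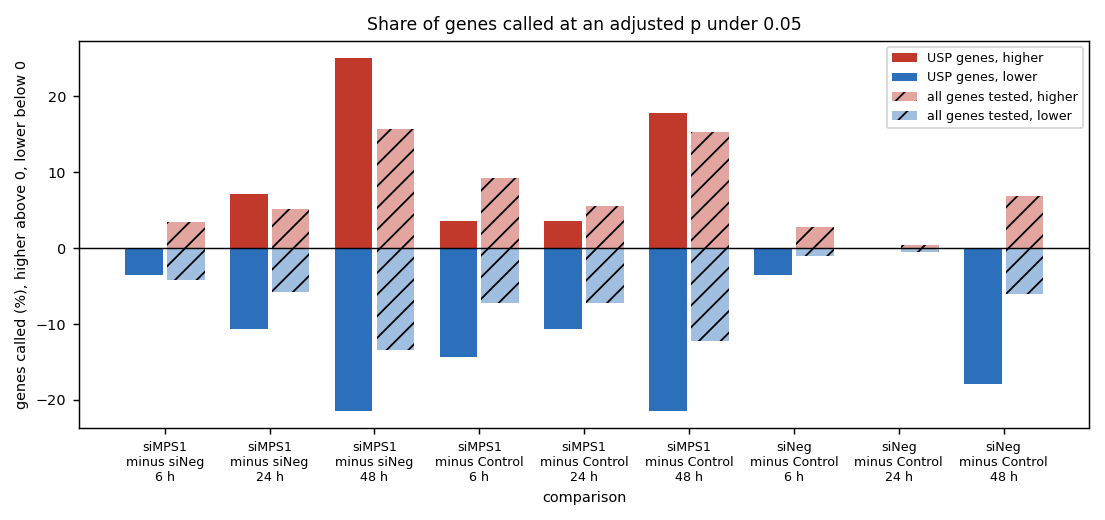
Percentage of the 28 USP genes (solid bars) and of all 7828 genes tested (hatched bars) called at an adjusted p under 0.05 in each comparison of treatments, with genes called higher drawn above 0 and genes called lower below 0. For siMPS1 minus siNeg at 48 h 7 USP genes were higher and 6 lower, and for siNeg minus Control at 24 h no USP gene was called in either direction.

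Against untransfected cells, siMPS1 cells had 1 USP gene higher and 4 lower at 6 h (against 9.29% of all genes higher and 7.28% lower), 1 higher and 3 lower at 24 h (5.49% and 7.19%), and 5 higher and 6 lower at 48 h (15.3% and 12.2%). The comparisons with siNeg and with Control share the siMPS1 arrays, so they are not independent of each other. At 6 h the count of 5 was 2 without siMPS1 replicate 2 and 1 without Control replicate 2 of that time. At 24 h the count of 4 was 2 without siMPS1 replicate 1 or without Control replicate 1. At 48 h the count of 11 was 7 and 5 without siMPS1 replicates 1 and 2 and 6 without Control replicate 2. Scaling each array to its median moved the median of all genes by -0.20 for siMPS1 minus Control at 6 h and made the count there 1 higher and 10 lower.

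**Figure D2:**
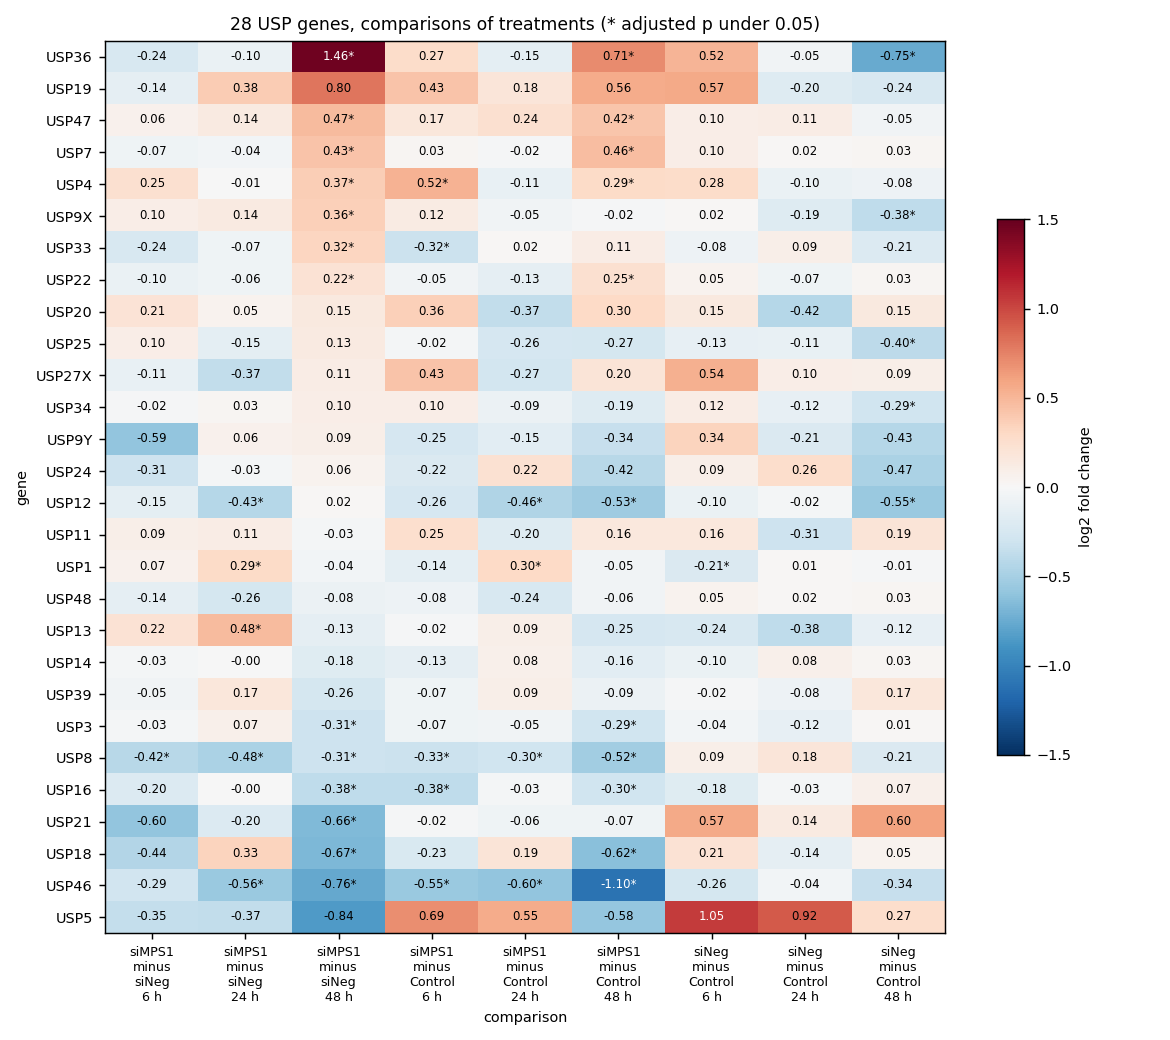
Log2 fold changes of the 28 USP genes (rows) in the 9 comparisons of treatments (columns), with siMPS1 minus siNeg, siMPS1 minus Control and siNeg minus Control at 6, 24 and 48 h, and an asterisk where the adjusted p is under 0.05. USP8 carries an asterisk in all 6 comparisons of siMPS1, and USP36 has the largest value, 1.46 for siMPS1 minus siNeg at 48 h.

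USP8, which removes ubiquitin from receptors such as EGFR at endosomes, was lower in siMPS1 cells at all 3 times and against both other treatments. At 6 h its log2(signal + 3) was 7.40 and 7.53 in siMPS1 cells, 7.88 and 7.88 in siNeg cells and 7.75 and 7.83 in Control cells. At 24 h it was 7.71 and 7.61 in siMPS1 cells, 8.12 and 8.16 in siNeg cells and 7.98 and 7.94 in Control cells. At 48 h it was 7.66 and 7.51 in siMPS1 cells, 7.80 and 7.99 in siNeg cells and 8.09 and 8.11 in Control cells. Both siMPS1 arrays lay below all 4 other arrays at each time.

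Against siNeg the fitted change of USP8 was -0.42 at 6 h, -0.48 at 24 h and -0.31 at 48 h (SE 0.08 each), with limma adjusted p-values of 0.00734, 0.000963 and 0.00799. Against Control it was -0.33, -0.30 and -0.52 at 6, 24 and 48 h, with adjusted p-values of 0.013, 0.0214 and 0.000148. The siNeg arrays did not pass the test against Control at any time, with changes of 0.09, 0.18 and -0.21. Only 1 probe set reads USP8, so no other probe set could be set beside it. The 24 h call against Control was lost with median centring (-0.23, adjusted p 0.123) and in a fit of the compared groups alone (0.0586). The call against siNeg was lost at 6 h without siNeg replicate 1 or 2 (adjusted p 0.056 and 0.0544) and at 48 h without siMPS1 replicate 2 or siNeg replicate 2 (0.0966 and 0.114), while the 24 h call and the 48 h call against Control held without any 1 array. The calls against Control at 6 and 24 h were lost without single arrays, at 0.0909 without siMPS1 replicate 1 and 0.104 without Control replicate 2 at 6 h, and at 0.144 without siMPS1 replicate 2, 0.115 without Control replicate 1 and 0.0861 without Control replicate 2 at 24 h.

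STAM and STAM2, the adaptor proteins that hold USP8 at endosomes, are among 18 partner genes listed for the family. STAM2 changed by -0.66 at 6 h, -0.33 at 24 h and -0.65 at 48 h against siNeg, and was called at 6 h (adjusted p 0.0299) and 48 h (0.00965). STAM changed by -0.44 at 6 h (0.0411), -0.17 at 24 h and 0.11 at 48 h. EGFR, a receptor that USP8 protects from lysosomal breakdown, was 0.53 higher against siNeg at the transcript level at 48 h (adjusted p 6.45e-05) and changed by 0.12 and -0.03 at 6 and 24 h. Against Control EGFR changed by 0.69 (5.05e-05), -0.36 (0.00583) and 0.62 (2.05e-05) at 6, 24 and 48 h. For siNeg minus Control it changed by 0.57 (0.000681), -0.34 (0.0505) and 0.09 (0.539).

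USP46, USP12 and USP1 are the USPs that need the partner WDR48 (UAF1) for full activity. USP46 at 24 h read 5.82 and 6.13 in siMPS1 cells, 6.40 and 6.67 in siNeg cells and 6.70 and 6.45 in Control cells. At 48 h it read 5.64 and 5.43 in siMPS1 cells, 6.29 and 6.31 in siNeg cells and 6.64 and 6.65 in Control cells. The siMPS1 arrays were the lowest at both times.

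The change of USP46 against siNeg was -0.29 at 6 h (adjusted p 0.22), -0.56 at 24 h (0.0158) and -0.76 at 48 h (0.000504), with an SE of 0.14. Against Control it was -0.55, -0.60 and -1.10, with adjusted p-values of 0.0141, 0.00944 and 1.97e-05. A further USP46 probe set read -0.36, -0.57 and -0.40 against siNeg and -0.29, -0.56 and -0.52 against Control, past the test at 24 h against siNeg and at 24 and 48 h against Control. Averaged over its 3 probe sets, 1 of them below the filter, USP46 changed by -0.02 at 24 h (0.96) and -0.48 at 48 h (0.0607) against siNeg, and by -0.16 at 6 h (0.573) and -0.08 at 24 h (0.834) against Control. On the chosen probe set the 48 h calls held without any 1 array. The 24 h call against siNeg was lost without siMPS1 replicate 1 (adjusted p 0.13) or siNeg replicate 2 (0.167), the 24 h call against Control without siMPS1 replicate 1 (0.0976) or Control replicate 1 (0.113), and the 6 h call against Control without siMPS1 replicate 2 (0.125) or Control replicate 2 (0.0962).

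USP12, a close paralog of USP46, read 6.44 and 6.42 in siMPS1 cells at 24 h, against 6.91 and 6.82 in siNeg cells and 7.07 and 6.71 in Control cells. It was lower against siNeg by -0.43 (SE 0.13, adjusted p 0.039) and against Control by -0.46 (adjusted p 0.0273). At 48 h it was lower against Control in both transfected groups, by -0.53 in siMPS1 cells (0.00543) and -0.55 in siNeg cells (0.00855), and siMPS1 minus siNeg was 0.02. The 24 h calls were lost in 6 of 10 alternatives against siNeg and in 5 of 10 against Control, among them quantile normalization (0.0596 and 0.0614), median centring (0.0715 and 0.0865) and a fit of the compared groups alone (0.053 and 0.0688). The call against siNeg was also lost without any 1 array of siMPS1 or siNeg at that time (adjusted p between 0.0963 and 0.21) and without either Control array of 6 h (0.0502 and 0.0503). The call against Control at 24 h was lost without siMPS1 replicate 1 or 2 (0.0774 and 0.112) or Control replicate 1 (0.291), and that at 48 h without siMPS1 replicate 2 (0.0776) or Control replicate 2 (0.0597).

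USP1, which takes ubiquitin off FANCD2 and PCNA in DNA repair, read 10.18 and 10.20 in siMPS1 cells at 24 h, against 9.90 and 9.90 in siNeg cells and 9.89 and 9.88 in Control cells. It was higher by 0.29 against siNeg (SE 0.05, adjusted p 0.00145) and by 0.30 against Control (0.000887), and both calls held without any 1 array. A further USP1 probe set did not follow, with -0.03 against siNeg (adjusted p 0.903) and -0.19 against Control (0.266). At 6 and 48 h USP1 changed by 0.07 and -0.04 against siNeg, past the test at neither time. WDR48 itself changed by -0.28, 0.30 and -0.01 against siNeg at the 3 times and was called at none.

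**Figure D3:**
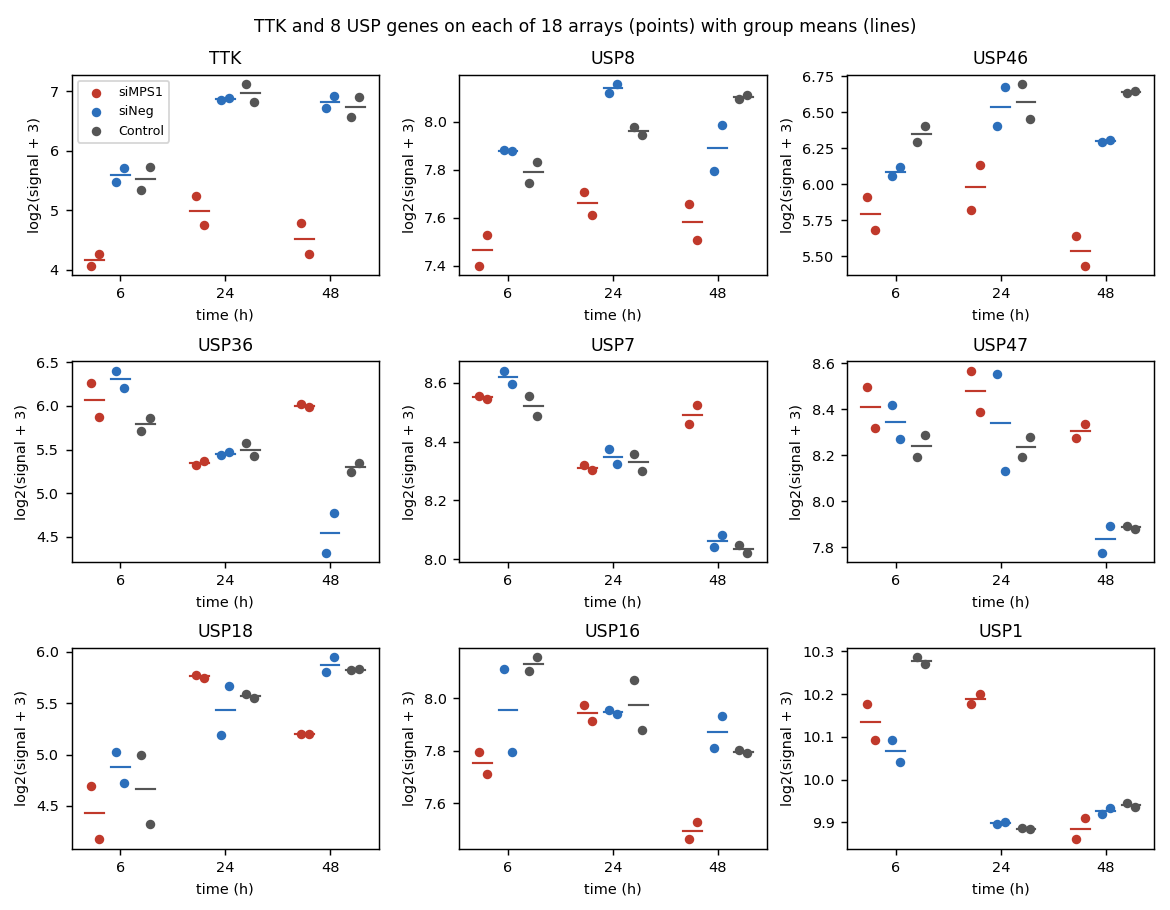
Log2(signal + 3) of TTK and 8 USP genes on each of the 18 arrays (points) with the mean of each group of 2 (lines), by time in hours, with siMPS1 left, siNeg in the middle and Control right. The siMPS1 points of USP8 lie below all others at every time, while those of USP36 and USP7 lie above all others at 48 h and not at 24 h.

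At 48 h 7 USP genes were higher in siMPS1 cells than in siNeg cells. The largest rise was in USP36, a nucleolar protease. USP36 read 6.02 and 5.99 in siMPS1 cells, 4.32 and 4.77 in siNeg cells and 5.24 and 5.35 in Control cells at 48 h. It was higher against siNeg by 1.46 (SE 0.17, limma adjusted p 5.15e-06) and against Control by 0.71 (0.00515), and both calls held without any 1 array. Part of the distance to siNeg lay in the siNeg arrays, which were below Control by -0.75 (adjusted p 0.00684). That siNeg call was lost without siNeg replicate 1 (0.12) or Control replicate 2 (0.0552), and in a fit of the compared groups alone (0.0663). At 6 and 24 h USP36 changed by -0.24 and -0.10 against siNeg, past the test at neither time.

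USP7, which stabilises MDM2 and p53, read 8.46 and 8.52 in siMPS1 cells, 8.04 and 8.08 in siNeg cells and 8.05 and 8.02 in Control cells at 48 h. It was higher by 0.43 against siNeg (SE 0.06, adjusted p 4.33e-05) and by 0.46 against Control (3.42e-05), with siNeg minus Control at 0.03, and both calls held without any 1 array. The further probe sets of USP7 read 0.21 (adjusted p 0.0706) and -0.18 (0.744) against siNeg and 0.07 and 0.53 against Control, past the test in none of these. The call was therefore made on 1 of 3 USP7 probe sets. GMPS, a partner of USP7, was higher by 0.27 against siNeg (0.0177) and 0.44 against Control (0.000735) at 48 h. At that time MDM2 changed by 0.02 against siNeg (0.98). MDM4, also among the USP substrate genes listed, was lower by -1.51 against siNeg (0.0164), at a dim mean of 3.90.

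USP47, which acts in base excision repair, read 8.28 and 8.34 in siMPS1 cells, 7.78 and 7.89 in siNeg cells and 7.89 and 7.88 in Control cells. It was higher by 0.47 (SE 0.11, adjusted p 0.00317) against siNeg and by 0.42 (0.00808) against Control, and the call against Control was lost without siMPS1 replicate 2 (0.058). USP4, which acts on TGF-beta receptors and in splicing, read 7.22 and 7.21 in siMPS1 cells, 6.83 and 6.86 in siNeg cells and 6.89 and 6.96 in Control cells. It was higher by 0.37 (SE 0.09, 0.00618) against siNeg and by 0.29 (0.0288) against Control, and the difference from Control lost its call without any 1 array of either group (adjusted p between 0.0679 and 0.146). The further USP4 probe set read 0.04 against siNeg (0.822) and 0.21 against Control (0.137). SART3, which directs USP4 to the spliceosome, was higher by 0.45 against siNeg (0.00171) and changed by 0.22 against Control (0.0975).

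USP9X, a large protease of cell polarity and signalling, read 9.33 and 9.48 in siMPS1 cells, 9.01 and 9.07 in siNeg cells and 9.36 and 9.48 in Control cells at 48 h. The difference of 0.36 against siNeg (SE 0.08, adjusted p 0.0018) stood beside -0.02 against Control (0.895), since siNeg cells were below Control by -0.38 (0.00341). A further USP9X probe set read the same way, with 0.46 (0.000105) against siNeg, 0.06 (0.61) against Control and -0.41 (0.00126) for siNeg minus Control. USP33, which acts on centrosomes and on ROBO receptors, read 8.89 and 8.72 in siMPS1 cells, 8.39 and 8.59 in siNeg cells and 8.69 and 8.71 in Control cells. It was higher by 0.32 (SE 0.08, 0.0055) against siNeg and differed by 0.11 (0.345) from Control. A further USP33 probe set was higher by 0.76 (1.37e-05) against siNeg and by 0.48 (0.00143) against Control. The USP33 call against siNeg was lost without siMPS1 replicate 1 (0.0845) or siNeg replicate 1 (0.0917).

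USP22, the protease of the SAGA complex that removes ubiquitin from histone H2B, read 9.50 and 9.39 in siMPS1 cells, 9.15 and 9.31 in siNeg cells and 9.16 and 9.24 in Control cells at 48 h. It was higher by 0.22 (SE 0.07, adjusted p 0.025) against siNeg and by 0.25 (0.0138) against Control. Both calls were lost without siMPS1 replicate 1 (0.18 against siNeg and 0.12 against Control), without replicate 1 of the other group (0.24 for siNeg and 0.105 for Control), and after scaling each array to its median. Averaged over its 4 probe sets, of which only the chosen one passed the filter, USP22 changed by -0.11 against siNeg (0.754). ENY2, which sits in the same SAGA module, was higher by 0.34 (0.00663) and 0.22 (0.0368) at 6 and 24 h against siNeg and changed by -0.12 at 48 h.

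**Figure D4:**
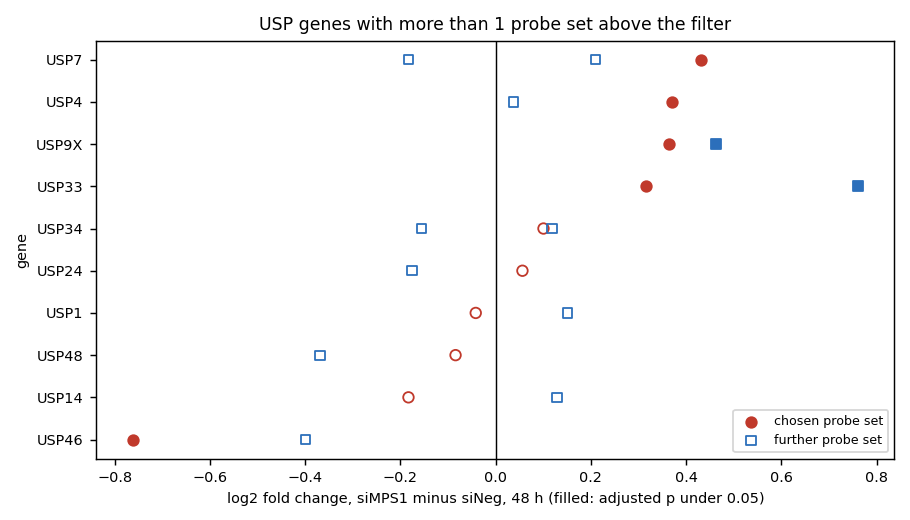
Log2 fold change of siMPS1 minus siNeg at 48 h for the 10 USP genes read by more than 1 probe set above the filter, with the chosen probe set as a circle and the further ones as squares, filled where the adjusted p is under 0.05. USP9X and USP33 have filled symbols of both kinds to the right of 0, while for USP7, USP4 and USP46 only the circle is filled.

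At 48 h 6 USP genes were lower in siMPS1 cells than in siNeg cells, USP46 and USP8 among them. USP18, which takes the interferon-induced modifier ISG15 off proteins, read 5.20 and 5.20 in siMPS1 cells, 5.80 and 5.94 in siNeg cells and 5.82 and 5.83 in Control cells. It was lower by -0.67 (SE 0.22, adjusted p 0.031) against siNeg and by -0.62 (0.0466) against Control. USP18 is dim and both calls were lost without any 1 array of the compared groups (adjusted p between 0.0713 and 0.143 against siNeg and between 0.136 and 0.151 against Control). The call against Control was also lost without either siMPS1 array of 24 h, either siNeg array of 48 h, either Control array of 24 h or siNeg replicate 1 of 6 h (0.0506 to 0.0565).

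USP16, which removes ubiquitin from histone H2A and is needed in mitosis, read 7.46 and 7.53 in siMPS1 cells, 7.81 and 7.93 in siNeg cells and 7.80 and 7.79 in Control cells at 48 h. It was lower by -0.38 (SE 0.09, adjusted p 0.00553) against siNeg and by -0.30 (0.0227) against Control, and at 6 h by -0.38 (0.0121) against Control. At 24 h the 3 treatments lay within 7.88 and 8.07 and no call was made. Without siNeg replicate 2 the 48 h call against siNeg was lost (0.0581), without any 1 array of either group that against Control (0.0561 to 0.121), and without siMPS1 replicate 2 (0.0945) or Control replicate 2 (0.0827) that at 6 h.

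USP3, a histone H2A and H2B protease of the DNA damage response, read 7.63 and 7.47 in siMPS1 cells, 7.81 and 7.91 in siNeg cells and 7.77 and 7.92 in Control cells at 48 h. It was lower by -0.31 (SE 0.10, adjusted p 0.024) against siNeg and by -0.29 (0.0322) against Control. Both were lost without siMPS1 replicate 2 (0.186 and 0.228) or without replicate 2 of the other group (0.138 for siNeg and 0.232 for Control). USP21, another histone H2A protease, read 4.82 and 4.63 in siMPS1 cells, 5.39 and 5.39 in siNeg cells and 4.90 and 4.68 in Control cells. Here the siNeg arrays stood apart. USP21 was lower by -0.66 (SE 0.22, 0.0284) against siNeg and differed by -0.07 (0.861) from Control, and the call was lost without any 1 array of the compared groups (0.057 to 0.151).

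USP13, which acts on proteins sent for degradation from the endoplasmic reticulum, was called against siNeg at 24 h. It read 7.33 and 7.36 in siMPS1 cells, 6.89 and 6.85 in siNeg cells and 7.31 and 7.20 in Control cells. The siMPS1 and Control arrays lay close together, above the siNeg arrays, with differences of 0.48 (SE 0.12, adjusted p 0.0145) against siNeg and 0.09 (0.68) against Control. The call was lost without siMPS1 replicate 2 (0.0834) or siNeg replicate 1 or 2 (0.0733 and 0.086).

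Against Control at 6 h the genes called were USP4, higher by 0.52 (SE 0.09, adjusted p 0.0019), and USP46, USP16, USP8 and USP33, lower by -0.55, -0.38, -0.33 and -0.32. USP4 read 7.69 and 7.56 in siMPS1 cells and 7.14 and 7.07 in Control cells, with siNeg at 7.34 and 7.42, and its call held without any 1 array. A further USP4 probe set read 0.22 (0.136). USP33 (adjusted p 0.0121) lost its call without siMPS1 replicate 2 (0.0789) or Control replicate 1 or 2 (0.064 and 0.0623), and its further probe set read 0.02 (0.895).

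The comparison of siNeg with Control sets cells given an siRNA not directed at MPS1 beside untransfected cells. The siRNA and the transfection itself cannot be told apart in it. At 6 h USP1 was lower by -0.21 (SE 0.05, adjusted p 0.0315), 0 higher and 1 lower of the 28, against 2.84% of all genes higher and 0.984% lower. That call was lost without any 1 array of either group (adjusted p between 0.0938 and 0.217), and the count was 0 without siNeg replicate 1 or 2 or Control replicate 1 of 6 h. The further USP1 probe set read -0.04 at 6 h (adjusted p 0.866). A further USP34 probe set was higher against Control at 6 h, by 0.73 in siNeg cells (0.00847) and 0.59 in siMPS1 cells (0.0133). The chosen USP34 probe set read 0.12 (0.526) and 0.10 (0.483) there. At 24 h limma called 0 USP genes (against 0.46% of all genes higher and 0.473% lower), and 5 had an unadjusted p under 0.05, against 14.7% of all genes. The count there was 0 in every alternative run.

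At 48 h siNeg cells had 5 USP genes lower than Control cells and 0 higher, against 6.82% of all genes higher and 6.11% lower. They were USP36 (-0.75), USP12 (-0.55), USP25 (-0.40), USP9X (-0.38) and USP34 (-0.29), with adjusted p-values of 0.00684, 0.00855, 0.0259, 0.00341 and 0.0369. USP25, which acts on endoplasmic reticulum and TRAF proteins, read 6.16 and 6.09 in siNeg cells and 6.56 and 6.48 in Control cells. USP34, a large protease of Wnt signalling, read 7.20 and 7.04 in siNeg cells and 7.38 and 7.45 in Control cells. The further USP34 probe sets read -0.32 (adjusted p 0.179) and -0.41 (0.342), past the test in neither. The count was 1 without siNeg replicate 1, 3 without Control replicate 1 and 1 without Control replicate 2, and 2 in a fit of the compared groups alone. Only USP9X held without any 1 array.

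By role, the 48 h calls against siNeg went in both directions in several groups, beside 15.7% of all genes higher and 13.5% lower. Of 6 tested genes of DNA damage repair, USP47 was higher and USP3 lower, and USP1, USP11, USP24 and USP48 were not called, with a median log2 change of -0.04. Of 3 tested genes of the p53 and MDM2 pathway, USP7 and USP4 were higher and USP5 was not called (median 0.37). Of 6 histone proteases, USP36 and USP22 were higher, USP16, USP21 and USP3 lower and USP27X not called (median -0.10). Of 4 cell cycle genes, USP9X and USP33 were higher, USP16 lower and USP39 not called (median 0.03). The median of all genes in that comparison was 0.03, and genes that have more than 1 role count in each.

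The proteases of free ubiquitin and the proteasome, USP5, USP13 and USP14, were called at 48 h in neither direction, with a median of -0.18. USP14, which trims ubiquitin at the proteasome, changed by -0.18 (adjusted p 0.0538). USP5, which takes apart free ubiquitin chains, varied most between replicates, with arrays between 2.33 and 5.01 and an SE of 0.76, so a change of its size could not be resolved. Of 5 genes of endosomes, the endoplasmic reticulum and mitochondria, USP33 was higher and USP8 lower, and USP19, USP20 and USP25 were not called. USP19, a protease anchored in the endoplasmic reticulum, had the largest uncalled rise, 0.80 (SE 0.32, 0.0647).

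The other 12 tested genes that were not called against siNeg at any time are USP5, USP9Y, USP11, USP14, USP19, USP20, USP24, USP25, USP27X, USP34, USP39 and USP48. USP11, a repair protease, stayed between 7.71 and 8.27 on the 18 arrays, and USP39, a splicing factor that has lost protease activity, between 6.55 and 7.01. USP48, a histone H2A protease, changed by -0.26 against siNeg at 24 h (adjusted p 0.0582). Its further probe set, of mean 4.86, read -0.98 at 6 h (0.031), 0.01 at 24 h and -0.37 at 48 h against siNeg. A further USP14 probe set read 0.01 at 6 h, 0.23 at 24 h (0.0498) and 0.13 at 48 h against siNeg. USP24 changed by -0.31, -0.03 and 0.06 at the 3 times, and its further probe set by -0.79 at 6 h (0.0147). USP9Y and USP9X are close copies, and whether their probe sets share signal was not tested. USP5, USP19 and USP39 were called in 0 of the 17 contrasts.

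With the dim probe sets kept, the 4 genes below the filter could be fitted and none was called against siNeg. USP2, which acts on MDM2 and cyclin D1, gave 1.34 at 6 h (adjusted p 0.133), 1.03 at 24 h (0.255) and -0.15 at 48 h (0.894). It read between 1.91 and 4.20 over the 18 arrays, mostly under the filter. USP29, USP49 and USP53 gave values between -0.59 and 0.79 over the 3 times.

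The times were also compared within each treatment. At 24 h relative to 6 h, 6 USP genes were higher and 5 lower in siMPS1 cells (against 26.4% of all genes higher and 21.1% lower), 6 higher and 5 lower in siNeg cells (25.2% and 19.1%), and 8 higher and 3 lower in Control cells (27.1% and 15.9%). USP13 rose in siMPS1, siNeg and Control cells, by 0.72, 0.46 and 0.60, and USP22 by 0.32, 0.28 and 0.40. USP7 fell in all 3, by -0.24, -0.27 and -0.19. These USP13 and USP22 calls held without any 1 array, and the USP7 calls did so in siMPS1 and siNeg cells, while in Control cells USP7 lost its call without replicate 1 of 6 h (0.126) or replicate 2 of 24 h (0.117). The USP7 calls rest on 1 of 3 probe sets: the further ones read -0.03 and -0.61 in siMPS1 cells, -0.11 and -0.60 in siNeg cells and 0.02 and -0.59 in Control cells, past the test in none. Averaged over its 4 probe sets, of which only the chosen one passed the filter, USP22 changed by -0.05, 0.01 and 0.32 in siMPS1, siNeg and Control cells, past the test in none.

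USP18 rose by 1.33 in siMPS1 cells (adjusted p 9.4e-05) and 0.91 in Control cells (0.00317), and changed by 0.56 in siNeg cells. USP24 rose in siMPS1 and siNeg cells, by 0.80 and 0.53, and USP14 by 0.21 and 0.18. A further USP14 probe set was lower in siNeg cells, by -0.33 (0.0012), and read -0.11 in siMPS1 cells (0.223). The siNeg call of USP14 was lost in 9 of 18 fits without 1 array, at 0.11 (0.319) without replicate 2 of 6 h. A further USP24 probe set read -0.18 in siNeg cells (0.426). USP20, an HIF and receptor protease, fell in both, by -0.74 and -0.59, and USP36 by -0.72 and -0.85. USP3 rose by 0.34 in siMPS1 cells and 0.32 in Control cells, and USP12 fell by -0.55 and -0.35 in the same pair. Without replicate 2 of 24 h the Control values were 0.17 (0.242) for USP3 and -0.17 (0.382) for USP12, and without replicate 2 of 6 h that of USP18 was 0.57 (0.0787).

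Some calls at 24 h relative to 6 h were made in 1 treatment only, and whether the treatments differ there was not tested beyond siMPS1 against siNeg. USP4 was lower in siMPS1 cells by -0.33 and higher in Control cells by 0.30. The further USP4 probe set read -0.03 (adjusted p 0.813) in siMPS1 cells and 0.22 (0.0886) in Control cells. With median centring both USP4 calls were lost (0.0657 in siMPS1 and 0.27 in Control cells), and with quantile normalization that in Control cells (0.0603). USP46, USP8 and USP9Y were called in siNeg cells, at 0.45, 0.26 and -0.81. USP27X, USP11 and USP9X were called in Control cells, at 0.94, 0.30 and 0.21. Without Control replicate 2 of 24 h USP11 read 0.12 (0.403) and USP4 0.18 (0.221), and with median centring USP11 read 0.13 (0.272), USP3 0.16 (0.215) and USP9X 0.05 (0.688). USP27X lost its call without Control replicate 1 of 24 h (0.0918). USP1 was lower in siNeg cells by -0.17 and in Control cells by -0.39 (adjusted p 7.91e-06), and differed by 0.05 in siMPS1 cells.

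Without any 1 array, 8 of the 11 calls at 24 h relative to 6 h were kept in siMPS1 cells (not USP3, USP4 and USP14), 4 of 11 in siNeg cells (USP7, USP13, USP22 and USP36) and 3 of 11 in Control cells (USP1, USP13 and USP22). Counts at 24 h relative to 6 h were 6 in siNeg cells without siNeg 6 h replicate 1, 6 h replicate 2 or 24 h replicate 2, and in Control cells 7, 6 and 6 without Control 6 h replicate 1, 6 h replicate 2 and 24 h replicate 2. In siMPS1 cells leaving out 1 array gave 8 to 12. Scaling to the array median moved the median of all genes by -0.16 in Control cells and by 0.11 in siMPS1 cells for this step.

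At 48 h relative to 24 h, 3 USP genes were higher and 6 lower in siMPS1 cells (against 12.6% of all genes higher and 11.8% lower), 0 higher and 12 lower in siNeg cells (13.6% and 15.6%), and 0 higher and 5 lower in Control cells (8% and 11.6%). The median change of the 28 genes was -0.12, -0.24 and -0.03 in siMPS1, siNeg and Control cells, and that of all genes 0.01, -0.01 and -0.05. In siMPS1 cells USP36, USP22 and USP7 were higher, by 0.65, 0.35 and 0.18, and USP9Y, USP16, USP46, USP13, USP1 and USP14 lower, by -0.77, -0.45, -0.44, -0.36, -0.30 and -0.28.

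In siNeg cells the 12 lower genes were USP36 (-0.91), USP9Y (-0.79), USP47 (-0.51), USP25 (-0.50), USP4 (-0.46), USP24 (-0.44), USP12 (-0.43), USP33 (-0.31), USP34 (-0.31), USP7 (-0.29), USP48 (-0.27) and USP8 (-0.25). In Control cells they were USP4 (-0.48), USP47 (-0.35), USP11 (-0.34), USP7 (-0.29) and USP48 (-0.27). USP7, USP4, USP47 and USP48 were thus lower in both on the chosen probe sets. Further probe sets read -0.04 and 0.36 for USP7, -0.08 for USP4 and 0.30 for USP48 in siNeg cells, past the test in none. In Control cells they read -0.09 and -0.41 for USP7 and 0.17 for USP48, past the test in none. The further USP4 probe set kept the call there. With median centring the Control calls of USP7 (adjusted p 0.137), USP47 (0.239) and USP48 (0.354) were lost, and that of USP48 in siNeg cells (0.0692). In siMPS1 cells USP4, USP47 and USP48 differed between 48 and 24 h by -0.08, -0.17 and -0.09, past the test in none.

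Without any 1 array, USP1, USP16 and USP22 kept their calls in siMPS1 cells, USP4, USP7, USP25 and USP36 in siNeg cells, and USP4 and USP7 in Control cells. In siMPS1 cells USP36 lost its call without replicate 1 of 48 h (0.0513) and USP7 without any 1 array of either time (0.0636 to 0.207). The change in siMPS1 cells was -0.29 for USP46 without replicate 2 of 24 h. In siNeg cells it was -0.30 for USP47 without replicate 1 of 24 h, -0.29 for USP24 without replicate 2 of 48 h, and -0.29 for USP9Y, -0.27 for USP12 and -0.15 for USP8 without replicate 1 of 48 h. In Control cells it was -0.17 for USP11 without replicate 2 of 24 h. The counts were 4, 5 and 5 in siMPS1 cells without siMPS1 24 h replicate 2, 48 h replicate 1 and 48 h replicate 2, and 6, 7 and 7 in siNeg cells without siNeg 24 h replicate 1, 24 h replicate 2 and 48 h replicate 1. They were 3, 2, 2 and 2 in Control cells without Control 24 h replicate 1, 24 h replicate 2, 48 h replicate 1 and 48 h replicate 2. In Control cells scaling to the array median, which moved the median of all genes by 0.14, made the count 2 higher and 1 lower.

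**Figure D5:**
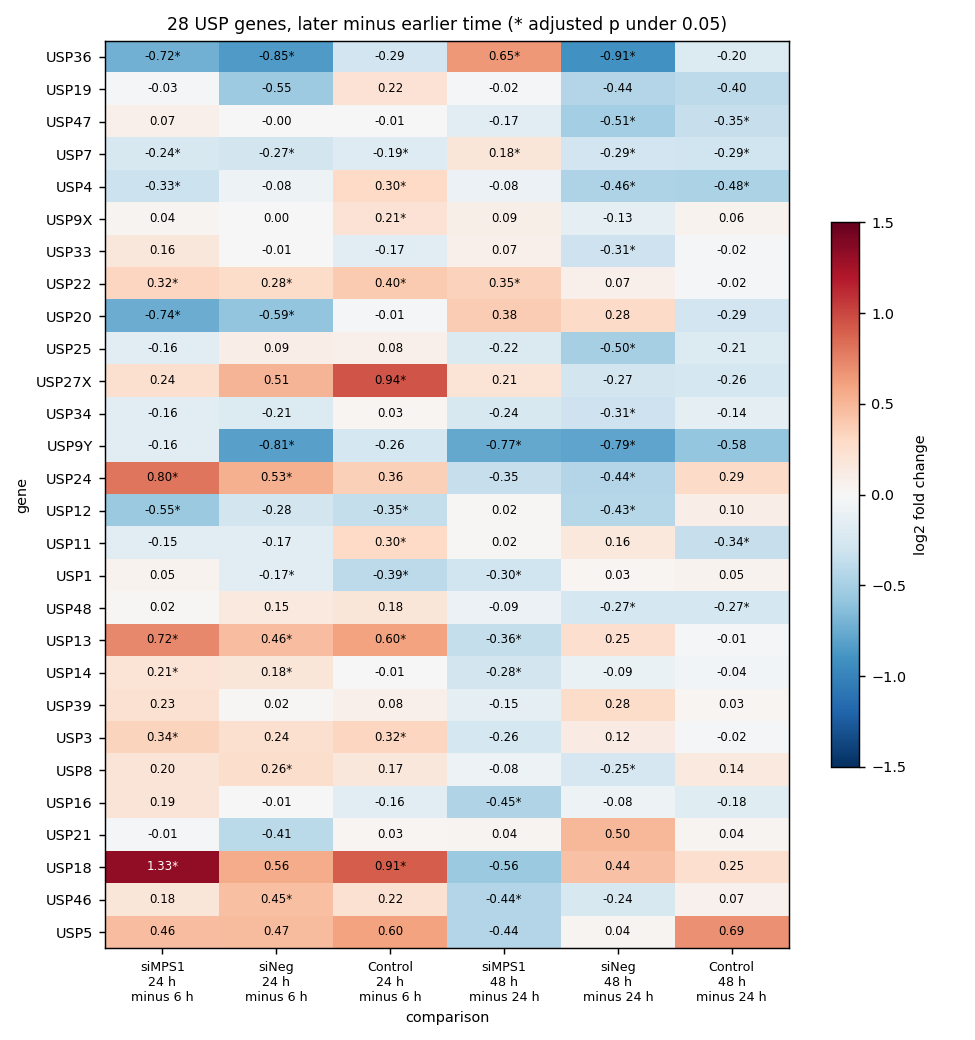
Log2 fold changes of the 28 USP genes (rows) between successive times within siMPS1, siNeg and Control cells (columns), with the later time minus the earlier one and an asterisk where the adjusted p is under 0.05. On its chosen probe set USP7 is lower at 24 h than at 6 h in all 3 treatments. At 48 h relative to 24 h it is higher in siMPS1 cells and lower in siNeg and Control cells on that probe set.

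Whether the difference between siMPS1 and siNeg itself changed with time was tested in the same fit. For 24 h minus 6 h limma called 0 USP genes, against 1.88% of all genes higher and 1.8% lower, and 2 had an unadjusted p under 0.05, against 18.8% of all genes. For 48 h minus 24 h it called 3 higher (USP36, USP7 and USP33) and 3 lower (USP18, USP13 and USP1), against 8.94% of all genes higher and 6.83% lower. USP36 had the largest, 1.56 (SE 0.24, adjusted p 0.000275), and USP7 gave 0.47 (0.00135). The calls of USP36, USP7 and USP1 held without any 1 array. The count of 6 was 3 without siMPS1 replicate 2 of 24 h and 3 without siNeg replicate 1 of 48 h.

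Other genes of the ubiquitin system, from lists made for the family, are given by their counts, beside 3.45% of all genes higher and 4.25% lower at 6 h, 5.14% and 5.81% at 24 h, and 15.7% and 13.5% at 48 h. Of 25 tested deubiquitinases and related genes outside the USP family (42 listed), 1 was higher and 2 lower against siNeg at 6 h. At 24 h 0 were higher and 2 lower, and at 48 h 3 and 5. The medians were 0.04, 0.03 and -0.01 at the 3 times. OTUD4, an OTU family protease, was lower at all 3 times, by -0.45, -0.31 and -0.35 (adjusted p 0.00561, 0.0201 and 0.00417). UCHL5, a proteasome-bound deubiquitinase, was lower at 6 and 48 h, by -0.37 and -0.41, and EIF3H, a translation factor subunit with a related domain, at 24 and 48 h, by -0.38 and -0.50. MINDY1 was higher at 6 h, by 2.07 (0.013), where it differed from Control by 0.43 (0.54) and siNeg minus Control was -1.63 (0.0517).

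Of 15 tested partner genes (18 listed), 1 was higher and 2 lower against siNeg at 6 h, 1 and 0 at 24 h, and 4 and 1 at 48 h. The 4 higher at 48 h were SART3, TCEAL4, GMPS and the proteasome subunit PSMD2, by 0.45, 0.37, 0.27 and 0.17. Of 22 tested genes whose proteins are known USP substrates (27 listed), 2 were higher and 3 lower at 6 h, 0 and 0 at 24 h, and 5 and 9 at 48 h, where the median was -0.16, beside the same shares of all genes. FANCI, which is cleared of ubiquitin by USP1, and PCNA were lower at 48 h by -0.57 (adjusted p 1.67e-05) and -0.51 (3.66e-05). CCND1, the gene of cyclin D1, was higher by 0.38 (0.000123). These are transcript levels, and USPs act on the proteins.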

How the data were processed

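RNA of U251 cells was measured on 1-colour Affymetrix human expression arrays, and per the labels the signals were made with MAS5 (version not given). The deposited values are log2 MAS5 signals, 1 per probe set. The log base is read from the values, since raised to base 2 they have nearly the same 2% trimmed mean on every array. Signals were put back on the linear scale, 3 was added and log2 taken again, so that fold changes of dim genes are understated. Of 22277 probe sets, 19064 name 1 gene. The dimmest 40% were left out and 1 probe set was kept per gene, the one with the highest mean, which left 7828 genes. limma 3.58.1 in R 4.3.3 (lmFit, eBayes with an intensity trend, two-sided) was fitted to all 18 arrays with 9 group means and 9 residual degrees of freedom. P-values were adjusted by Benjamini-Hochberg over all genes for each of 17 contrasts. The number of arrays limits the precision. In simulated data for siMPS1 minus siNeg at 48 h (7828 genes), 57 of 100 changes of 0.5 log2 and 90 of 100 of 1 log2 were recovered, with 10 unchanged genes called. Far fewer genes were changed there than the 2284 called in the real comparison, and the noise was independent between arrays. These shares are therefore not the power of that comparison. Genes called against siNeg are named with every array, and other genes called are named with their fitted change. The members, lists and naming rule were chosen with earlier results of these data known. Other pseudocounts, scalings, filters, probe set rules, fits and single arrays left out were tried as alternatives.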

Additional observations from a re-analysis of the deposited data

Results flagged for a closer look

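For 6 USP genes the test of the change itself (48 h minus 24 h, limma) called a change in siMPS1 minus siNeg. USP36 changed by 1.56 (adjusted p 0.000275), USP7 by 0.47 (0.00135) and USP33 by 0.39 (0.0247). USP18 changed by -1.004 (0.039), USP13 by -0.61 (0.019) and USP1 by -0.33 (0.00483). Further probe sets read 0.10 (adjusted p 0.638) and -0.36 (0.694) for USP7 and 0.18 (0.452) for USP1. The calls of USP13, USP18 and USP33 were each lost in some fit without 1 array. That of USP33 was also lost with median centring (0.0813), without the intensity trend (0.068) and in a fit of the compared groups alone (0.072). That of USP18 was also lost without the filter (0.0786) or the intensity trend (0.0601). The 3' to 5' log2 ratio of ACTB also differed at 48 h, at 0.87 and 0.92 in siMPS1 cells and 0.10 and 0.14 in siNeg cells, and its part in these changes was not tested.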

How the results depend on the processing

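With 1 array left out, the number of USP genes called was 0 to 2, 2 to 6 and 8 to 14 for siMPS1 minus siNeg at 6, 24 and 48 h, 1 to 5, 2 to 4 and 5 to 12 for siMPS1 minus Control, and 0 to 1, 0 to 0 and 1 to 6 for siNeg minus Control. For 24 h minus 6 h it was 8 to 12 in siMPS1, 6 to 11 in siNeg and 6 to 11 in Control cells, and for 48 h minus 24 h 4 to 10, 6 to 12 and 2 to 6. For the change of siMPS1 minus siNeg it was 0 to 0 (24 h minus 6 h) and 3 to 8 (48 h minus 24 h), and 12 to 17 genes were called against siNeg at 1 time or more. With the mean of all probe sets the count was 3 and 2 for siMPS1 minus siNeg at 6 and 24 h, 3 and 1 for siMPS1 minus Control, 0 for siNeg minus Control at 6 h, and 6 in siNeg and 7 in siMPS1 cells for 24 h minus 6 h. With median centring it was 11 and 2 for siMPS1 minus Control at 6 and 24 h, 3 for siNeg minus Control at 6 h and 3 for Control 48 h minus 24 h. Fits of the compared groups alone gave 3 for siMPS1 minus siNeg and 2 for siMPS1 minus Control at 24 h, and 2 for siNeg minus Control at 48 h. Without the intensity trend siNeg minus Control at 6 h gave 0 and Control 48 h minus 24 h gave 2. In 2 alternatives chosen after seeing the data, 5 genes were called against siNeg without counting 48 h, and a fit without the 48 h arrays gave 2 for siMPS1 minus siNeg at 6 h. The cause of these shifts was not tested.

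Some calls took the opposite sign on another probe set or in the mean of all probe sets. Only USP14 in siNeg cells was past the test in the opposite direction. For siMPS1 minus siNeg a further probe set gave -0.0285 for USP1 at 24 h and -0.18 for USP7 at 48 h, and for siMPS1 minus Control -0.19 for USP1 at 24 h and 0.0233 for USP33 at 6 h. For 24 h minus 6 h it gave 0.0447 for USP1, 0.0159 for USP7 and -0.0335 for USP9X in Control cells, -0.33 for USP14 (adjusted p 0.0012, past the test) and -0.18 for USP24 in siNeg cells, and -0.11 for USP14 in siMPS1 cells. For 48 h minus 24 h it gave 0.17 for USP48 in Control cells, 0.30 for USP48 and 0.36 for USP7 in siNeg cells, 0.0728 for USP1 in siMPS1 cells, and 0.18 for USP1 and -0.36 for USP7 in the change of siMPS1 minus siNeg. The mean of all probe sets gave -0.11 for USP22 (siMPS1 minus siNeg, 48 h), 0.0569 for USP33 (siMPS1 minus Control, 6 h), -0.0762 for USP14 and -0.0155 for USP46 (siNeg, 24 h minus 6 h), 0.015 for USP48 and 0.00931 for USP7 (siNeg, 48 h minus 24 h), and -0.0483 and -0.22 for USP22 in siMPS1 cells (24 h minus 6 h and 48 h minus 24 h). Of the 4 USP22 probe sets only the chosen one passed the filter. No call changed sign under the other settings run.

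With the replicate number as a block, 11 genes were called for siNeg 48 h minus 24 h in place of 12, and no other count changed. Deviations of arrays with the same number correlated between -0.09 and 0.10 at 1 time. With 2 arrays per group this cannot show whether arrays of the same number share an origin, on which the labels are silent.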
